A study of Mus musculus with 4 samples.

Results

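B cells made up 123 of the 39829 cells that passed the filters in 4 libraries of sorted left ventricular cells. They were chosen by UMI counts (unique molecular identifiers, 1 for each captured transcript molecule), and a cell was taken as a B cell when its Cd79a, Cd79b and Ms4a1 UMIs summed to 3 or more. It also had to hold no Cd3d, Cd3e or Cd3g UMI, no C1qa or C1qb UMI, and at most 3 S100a8 and S100a9 UMIs. The filters kept barcodes with more than 200 genes, under 20% mitochondrial UMIs and under 1% hemoglobin UMIs. All measurements of these cells come from the same transcript counts as the rule, so the levels in B cells are given beside those in T cells and endothelial cells (ECs) as a description, with no test. For this purpose 58 T cells were chosen by 2 or more summed Cd3 UMIs, and 30733 ECs by 3 or more summed Cdh5, Pecam1 and Egfl7 UMIs with no Ptprc or Cd3 UMI. Both classes had to hold no Cd79a, Cd79b or Ms4a1 UMI and to meet the same limits on C1q and S100 genes.

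The mice carried floxed alleles of Scarb1, which encodes the scavenger receptor SR-B1, together with a tamoxifen-inducible Cdh5-CreER and an R26-stop-tdTomato reporter. The study describes S fl/fl/R ΔEC mice and S fl/+/R ΔEC controls, and tamoxifen is stated for 7-week-old floxed mice without the reporter, with no age given for the reporter mice. Cre was thus driven by an endothelial promoter in every animal and both genotypes carried a floxed allele. The 2 NC libraries came from mice labelled as fed a chow diet, although the methods name a defined diet low in fat for control mice, and the 2 HFpEF libraries from mice given a high-fat diet (HFD) plus L-NAME, an inhibitor of nitric oxide synthase, for 20 weeks in the lineage-tracing mice. The labels do not assign a genotype to any library and no source used here gives the mice behind each one, so genotypes were not compared. Single-cell groups are described for both genotypes under each diet, as many groups as there are libraries, so each diet may hold 1 library of either genotype, which would not be replicates of 1 condition. Cells positive for red fluorescent protein (RFP) were sorted before 3′ sequencing and all libraries are labelled as endothelial cells. The B cells therefore go against the label of the sort, and why they passed it was not tested.

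B lymphocytes bind antigen through a membrane immunoglobulin made of 2 heavy and 2 light chains, which signals through the CD79A and CD79B chains (genes on chr7:24897381-24902197 and chr11:106311341-106314762, GRCm38), while CD20, encoded by Ms4a1 (chr19:11249675-11266241), is a membrane protein of mature B cells. They take up antigen and present its peptides on MHC class II to helper T cells, and activated cells can switch the heavy chain class and become antibody-secreting plasma cells. In the mouse heart, B cells are known as a resident and recirculating lymphocyte population, many of them within blood vessels.

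The cells matched their label on genes that the rule did not read. Pax5, the factor that maintains B cell identity, was found in 31 of the 123 cells. Bank1, a scaffold of antigen receptor signalling, was found in 61 cells and Fcmr, the receptor for the constant part of IgM, in 66. None of the 58 T cells held a UMI of any of these 3 genes, and no more than 0.00651% of ECs did, although the median T cell held 4305 UMIs, the median B cell 3518 and the median EC 2825. Ptprc, the pan-leukocyte gene for CD45, was captured in only 43 of the 123 B cells and in 77.6% of T cells. Most markers of other blood cells were at or near 0, those of the rule (the Cd3, C1q, S100a8 and S100a9 genes) within its own limits. All 8 neutrophil markers were at 0 UMIs, as were 8 of 10 macrophage and monocyte markers, and 15 of 18 T cell markers, the other 3 giving 13 UMIs, mostly Cd28. Of 6 dendritic cell markers, 5 were at 0. The other, Zbtb46, had 21 UMIs in 17 B cells (13.8%), against 15.5% of T cells and 17.6% of ECs with a UMI. A count of 0 among the 526339 UMIs of all B cells allows up to 5.70 CPM (UMIs of a gene per 1000000 UMIs of the pooled cells), by a floor of 3 counts.

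The rule's threshold passed through few cells. The 12 B cells with a marker sum of exactly 3 held Ighm in 11 cells and Cd74 in 12, and 5 held a Cdh5 UMI. Just outside, 7 cells had a sum of 2 and met the other clauses, of which 5 held Ighm, 6 held Cd74 and 5 held Cdh5. Of the 125 cells with a marker sum of 3 or more, none held a Cd3 UMI, 1 was left out for S100a8 and S100a9 and 1 for C1qa or C1qb. Barcode sequences were shared between libraries 168 times over the 6 pairs of libraries, and 2 of the shared barcodes were those of B cells.

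B cells were found in every library, at 8 cells in NC library 1, 33 in NC library 2, 17 in HFpEF library 1 and 65 in HFpEF library 2. Their share of cells was 0.112% (95% Clopper-Pearson interval 0.0486 to 0.222) and 0.493% (0.340 to 0.692) for NC. It was 0.312% (0.182 to 0.500) in HFpEF library 1 and 0.316% (0.244 to 0.402) in HFpEF library 2. Both HFpEF values lay between the NC values, so the diets overlapped, at 0.303% ± 0.269 (SD, n = 2) for NC and 0.314% ± 0.00228 (SD, n = 2) for HFpEF. The intervals cover counting error only. T cells varied alongside, with 4, 13, 9 and 32 cells in the same order, so that each library held between 1.89 and 2.54 B cells per T cell.

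**Figure D1:**
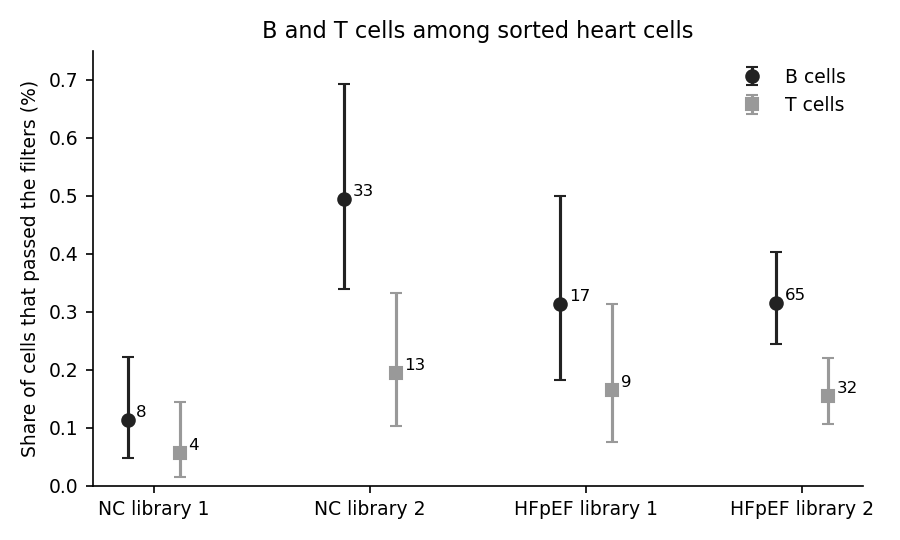
Share of B cells (circles) and T cells (squares) among cells that passed the filters, in percent, for each of the 4 libraries. Bars are 95% Clopper-Pearson intervals and the numbers are cells; NC library 1 is lowest and NC library 2 highest for both, with the HFpEF libraries between them.

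Many of the B cells carried endothelial RNA. Summed UMIs of Cdh5 (VE-cadherin), Pecam1 (CD31) and Egfl7, a factor secreted by ECs, reached 3 or more in 63 of the 123 B cells (51.2%) and were 0 in 44. Such cells were 7 of 8 in NC library 1, 22 of 33 in NC library 2, 7 of 17 in HFpEF library 1 and 27 of 65 in HFpEF library 2, and 23 of the 58 T cells (39.7%) met the same count. The B cells with endothelial UMIs were deeper, with a median of 7732 UMIs against 2052 in cells with fewer than 2 in NC library 2, and 4108 against 1341 in HFpEF library 2. Of genes that the rule did not read, summed H2-Aa, H2-Ab1 and H2-Eb1 UMIs had a median of 41 against 31 in NC library 2, 23 against 15 in HFpEF library 1 and 14 against 14 in HFpEF library 2. Cd74 had a median of 42.5 against 40 in NC library 2, 19 against 22 in HFpEF library 1 and 20 against 26 in HFpEF library 2. The 16 endothelial markers summed to 23702 CPM in B cells, 17374 in T cells and 46578 in ECs, with Fabp4, a fatty acid binding protein of capillary ECs, the most abundant at 14166 in B cells. Among the 57 B cells with fewer than 2 such UMIs, the list summed to 1887. Doublets were not called here, and the source of the endothelial RNA was not tested.

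**Figure D2:**
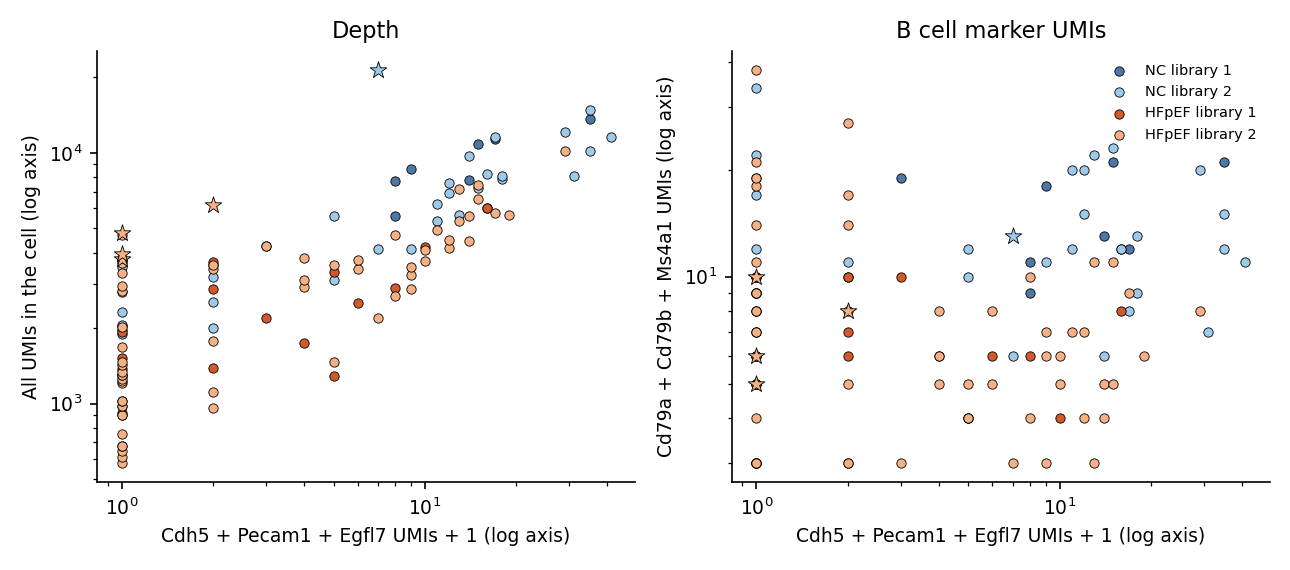
Each point is 1 of the 123 B cells, coloured by library; the x axes give summed Cdh5, Pecam1 and Egfl7 UMIs plus 1, and the y axes give all UMIs (left) and summed Cd79a, Cd79b and Ms4a1 UMIs (right), all on log axes. Stars are the 5 cells with 10 or more Jchain UMIs; cells with more endothelial UMIs are deeper, and the markers on the right are those that chose the cells, so none lies under 3 UMIs.

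Of 8901 genes with at least 10 CPM in B cells, T cells or ECs, 46 (0.517%) were at least 4-fold higher in pooled B cells than in both T cells and ECs, reached 50 CPM in B cells, and were higher in each library. The rule chose the cells by 3 of these genes, so the count describes them and supports nothing further. Being higher in each library could rest on few UMIs. NC library 1 had 4 T cells, and Ly86 met this limit there with 1 UMI in B cells and none in T cells. Lists of genes by role held 34 of the 46. All 46 also met the fold and level limits among the 57 B cells with fewer than 2 endothelial UMIs, where the count reached 72, but NC library 1 has no such cell and the limit per library was applied to the other 3 libraries. The median log2 ratio over all 8901 genes was 0.07 against T cells and -0.16 against ECs.

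The antigen receptor and its coreceptors held more of the 46 genes than any other list. Of the 17 genes of this list, all were captured in B cells and 12 were among the 46, with a median log2 ratio of 4.21 against T cells. Cd79a gave 1287, 1501, 1991 and 1580 CPM in NC libraries 1 and 2 and HFpEF libraries 1 and 2, and is absent from T cells and ECs by their rules. Ighm, the constant part of the IgM heavy chain, was found in 110 of 123 B cells at 1334 CPM, against 43.0 in T cells and 0.133 in ECs. Ighd, its IgD counterpart, was found in 65 cells at 236 CPM. Cd22 and Siglecg, inhibitory receptors for sialic acid, stood at 53.2 and 70.3 CPM in B cells with no UMI in T cells. The list's other members were not all particular to B cells: Cd81, a tetraspanin, was at 783 CPM in B cells and 1472 in ECs.

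Most cells held transcripts of the unswitched isotypes. Both Ighm and Ighd were captured in 62 B cells (50.4%, 95% Clopper-Pearson interval 41.2 to 59.5), Ighm without Ighd in 48 and Ighd without Ighm in 3. Another 2 cells held switched isotypes without either. The 1 from NC library 2 had 5 Ighg2b and 1 Ighg1 UMIs, and the 1 from HFpEF library 1 had 13 Igha and 6 Ighg2b UMIs. A further 3 cells held no heavy chain constant UMI, and the remaining 5 were the cells rich in Jchain described below. No cell held an Ighg2c, Ighg3 or Ighe UMI. Constant genes of the same class have near-identical copies, so the split between Ighg genes is uncertain.

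Light chains were mostly kappa. Igkc, the single kappa constant gene (chr6:70726435-70726966, GRCm38), was found in 119 of 123 B cells, in none of the T cells and in 0.364% of ECs. With 2 UMIs required, 68 cells held kappa alone, 5 held lambda alone (Iglc1, Iglc2 and Iglc3 summed), 49 held both and 1 held neither. UMIs of 1 kind only were thus found in 59.8% of the 122 cells with a chain (95% Clopper-Pearson interval 50.6 to 68.6). Where both were present, kappa exceeded lambda in 42 of 44 cells outside the Jchain-rich ones, with a median of 6.88 kappa UMIs per lambda UMI. Of the 5 lambda cells, that of NC library 2 held 47 Iglc1, 5 Iglc2 and 17 Iglc3 UMIs, 19 Ighm UMIs and no Igkc UMI. In HFpEF library 2 the 3 lambda cells held 6, 5 and 4 Iglc1 UMIs and none of Iglc2 or Iglc3. Reads of the lambda constant genes may be split between near-identical copies, so their division is uncertain. After each cell was thinned to 1000 UMIs the share with 1 kind was 80.4%. Thinning leaves each chain less likely to reach 2 UMIs, so the cells counted may differ from the 122 above.

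**Figure D3:**
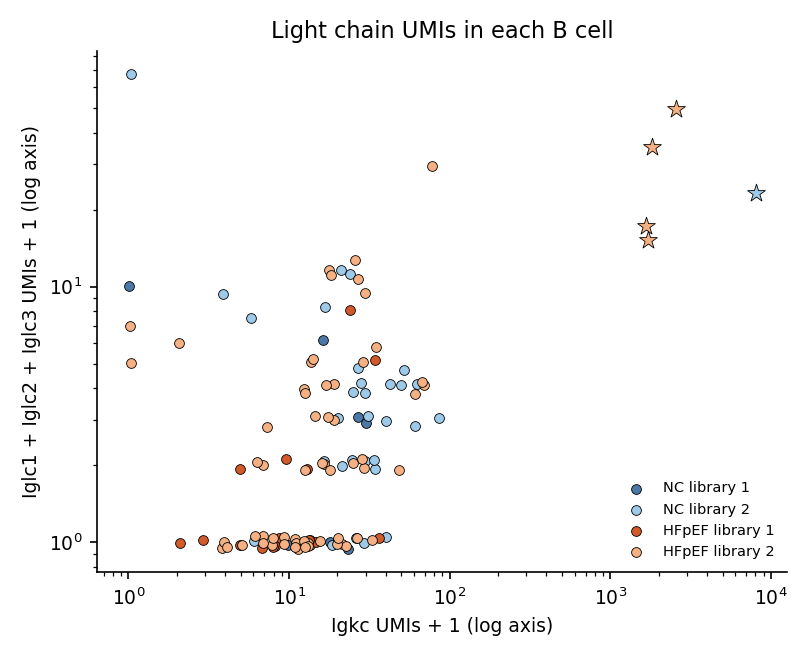
Kappa (Igkc, x axis) against lambda (Iglc1, Iglc2 and Iglc3 summed, y axis) UMIs plus 1 on log axes, with a small random shift, for the 123 B cells coloured by library. Most cells lie along the bottom with kappa alone, 5 lambda cells lie at the left, and the 5 Jchain-rich cells (stars) hold 1622 or more kappa UMIs each.

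The main MHC class II genes were captured in nearly every B cell. Cd74, the invariant chain that guides class II through the cell, was captured in all 123 B cells, with a median of 29 UMIs per cell (1 to 91), against 5.17% of T cells and 2.96% of ECs. Its level was 5463 and 6941 CPM for NC and 10890 and 8661 for HFpEF, without overlap of the diets. It was not called in the test between diets given below (edgeR adjusted p = 0.548). H2-Aa, H2-Ab1 and H2-Eb1, the peptide-binding chains, were found in 116, 116 and 118 cells, at 2272, 1822 and 1546 CPM. T cells held 16.5, 6.62 and 9.92 CPM of them and ECs 14.0, 20.6 and 9.59. Genes of the peptide editors were lower. H2-DMb2 was found in 76 cells with no UMI in T cells, and H2-Ob and H2-Oa, whose products restrain H2-DM and which are known from B cells, in 75 and 42 cells. Ciita, the class II transactivator, was sparse, at 11 UMIs in 11 cells. Of the 11 genes on the list, 8 were among the 46.

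Promoters of these genes are shown because class II genes are known to share an upstream pattern in which a Y box, bound by nuclear factor Y, lies downstream of an X box, bound by regulatory factor X. RefSeq promoters (GRCm38.p6, 250 bases before to 50 after the start) were on hand for 8 of the 11 list genes outside the chromosomes left out, and 6 held TGATTGG, a Y box core, on the gene's strand, with its first base 45 to 92 bases before the start. On either strand it occurred in 7.82% of all 32851 promoters. Of the 6, 3 also held AGCAAC, 6 letters of an X box, 23 to 26 bases upstream of it, and 14.8% of all promoters hold these letters on either strand. H2-DMa and Ctss, also on the list, held neither in their windows. Each line gives 70 bases 5′ to 3′ on the gene's strand, with both motifs in capitals.
H2-Aa, chr17:34287854-34287923, minus strand: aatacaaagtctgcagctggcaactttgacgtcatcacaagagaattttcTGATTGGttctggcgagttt
H2-Eb1, chr17:34305756-34305825, plus strand: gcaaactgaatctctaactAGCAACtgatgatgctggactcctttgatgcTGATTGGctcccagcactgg
H2-DMb1, chr17:34153078-34153147, plus strand: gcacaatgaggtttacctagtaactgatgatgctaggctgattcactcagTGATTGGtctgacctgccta
H2-DMb2, chr17:34145107-34145176, plus strand: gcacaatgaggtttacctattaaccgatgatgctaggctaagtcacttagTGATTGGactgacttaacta
H2-Oa, chr17:34092284-34092353, plus strand: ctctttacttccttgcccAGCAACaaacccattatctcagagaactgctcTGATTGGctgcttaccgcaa
H2-Ob, chr17:34238796-34238865, plus strand: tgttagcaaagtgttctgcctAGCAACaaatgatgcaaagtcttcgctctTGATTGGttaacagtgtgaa
The match to these letters is a description of the windows, and binding was not measured.

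The lists of transcription factors and signalling genes held fewer of the 46 than the antigen receptor and class II lists. Of 15 B cell transcription factors, 3 were among the 46: Pax5 at 72.2 CPM, Pou2af1, a coactivator of octamer factors, at 127, and Spi1, which encodes PU.1, at 57.0, all with no UMI in T cells. Ebf1, the early B cell factor, was at 939 CPM in B cells and 314 in ECs, and Mef2c at 542 and 295, so neither was among the 46. In the 57 B cells with fewer than 2 endothelial UMIs, Ebf1 was at 1508 CPM and Mef2c at 453. Bcl11a and Spib, at 45.6 and 43.7 CPM with no UMI in T cells, fell short of the limit of 50 CPM. Of 15 signalling genes, Syk, Blnk, Bank1 and Dok3 were among the 46. Syk, the kinase that docks on CD79, was found in 54 B cells and in no T cell. Blk, Btk, Plcg2 and Vav1 were found in 24, 9, 14 and 10 cells. Of the 15 survival and costimulation receptors, Fcer2a (CD23), Ly86, Cd83 and Cd86 were among the 46. Tnfrsf13c, the receptor for the survival factor BAFF, was found in 23 cells and Cd40 in 6, while Tlr9 had no UMI.

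**Figure D4:**
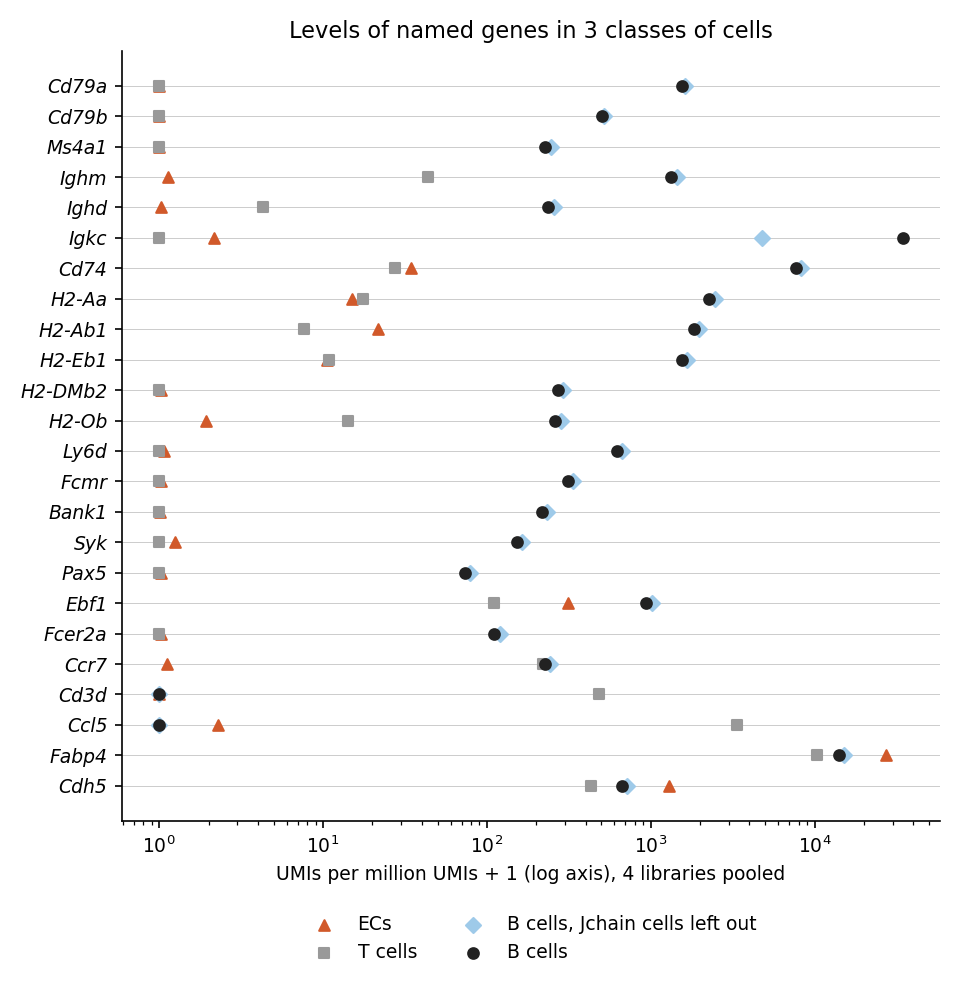
Pooled levels of 24 named genes in B cells, B cells without the 5 Jchain-rich cells, T cells and ECs, as CPM plus 1 on a log axis. B cell receptor and class II genes lie far to the right in B cells alone, Igkc shifts most when the 5 cells are left out, and Ebf1, Fabp4 and Cdh5 are high in ECs.

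Genes of B cell states were read from lists of each state. Ccr7, the chemokine receptor that guides cells to lymphoid tissue, was found in 64 B cells at 224 CPM, and was as high in T cells, at 218. Fcer2a was found in 41 cells, Cd55 in 56 and Cxcr5, the receptor for follicles, in 21. None of the 14 homing and adhesion genes was among the 46, and Cxcr3 and Ccr2 had no UMI in B cells while T cells had 19.8 and 46.3 CPM. Cr2 (CD21), abundant in marginal zone cells, was found in 15 cells, Cd1d1 in 2 and S1pr3 in none. Of the 8 genes of the marginal zone state, 6 were captured. The most abundant, Cd9, was found in 30 cells at 184 CPM, against 329 in ECs. Of the 7 genes of the B1 state, Cd5 and Itgam had no UMI, and the most abundant, Plscr1, was higher in ECs, at 114 against 74.1 CPM. Of 8 germinal centre genes, 6 were at 0, among them S1pr2. Rag1, Rag2, Dntt, Igll1 and Vpreb1 of immature B cells were at 0, whereas Vpreb3 was found in 37 cells, Cd24a in 51 and Cd93, which ECs also express, in 59. Of the 57 B cells with fewer than 2 endothelial UMIs, 2 held Cd93, 2 held Cd9 and none held Plscr1. Mki67, the proliferation marker, had no UMI. Itgax was at 0 and Tbx21 at 1 UMI among the 6 genes of T-bet-positive B cells. Fcgr2b, the most abundant of them, was found in 16 B cells at 34.2 CPM with no UMI in T cells, and Zeb2 in 7.

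Cytokine transcripts were few. Of 14 genes, 6 had no UMI in B cells, among them Il6, Il10 and Il1b. Ltb, which encodes lymphotoxin beta, was found in 53 cells at 171 CPM, against 232 in T cells and 0.540 in ECs. Tgfb1 stood at 224 CPM in B cells and 223 in ECs. Ccl5, a chemokine of cytotoxic T cells, led the genes higher in T cells than in B cells, with 3364 CPM against 0, and was followed by Trbc2, S100a4, Emb, Cd3d, Ms4a4b, Cd3g, Il7r, Nkg7 and Trac.

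Ranked by ratio among genes with at least 50 CPM in B cells and higher there in each library, the genes furthest above T cells were Igkc, Cd74, Cd79a, H2-Ab1, H2-Aa, H2-Eb1, Ly6d, Cd79b, Iglc2 and Iglc1, and those furthest above ECs held Ighm and Cd52 in place of Iglc2 and Iglc1. Igha and Jchain had larger pooled ratios than Cd74 but were not higher in each library. Ly6d, a surface marker of the B lineage, was found in 97 B cells at 619 CPM and in no T cell, which made it at least 62.4-fold higher by a floor of 3 counts over the pooled T cells. Of the 46 genes, 12 were in none of the lists, among them Napsa and Ctsh, which encode lysosomal proteases, at 141 and 122 CPM in B cells and no UMI in T cells. Scd1, a fatty acid desaturase, was at 179 CPM in B cells, against 3.31 in T cells and 3.06 in ECs. Fcrla, Stap1, Lat2, Hvcn1 and Cybb were at 131, 74.1, 64.6, 87.4 and 64.6.

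Of the 123 B cells, 5 were rich in immunoglobulin RNA. They were singled out after their values were seen, by 10 or more UMIs of Jchain (chr5:88519809-88527891, GRCm38), the chain that joins IgA and IgM into polymers. No other cell of the series held as many, and no other B cell held any Jchain UMI. A single cell came from NC library 2, with 979 Jchain, 7897 Igkc and 2904 Igha UMIs among 21344. The other 4 came from HFpEF library 2, with 324, 237, 181 and 171 Jchain UMIs, 2608, 1899, 1766 and 1622 Igkc UMIs, and 693, 579, 405 and 393 Igha UMIs. Immunoglobulin and Jchain UMIs were 55.4 to 60.3% of all UMIs in these cells. They held 87.2% of the Igkc UMIs and 99.7% of the Igha UMIs of all B cells, so that pooled Igkc was 34396 CPM with them and 4755 without, and Igha 9475 and 26.7.

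The 5 cells also shared transcripts of the secretory pathway. Tnfrsf17 (BCMA), a survival receptor of plasma cells, gave 37 UMIs in them and 1 in the other 118 B cells, and Xbp1, the factor of the secretory programme, gave 56 and 26. Txndc5, Ssr4, Edem1 and Sec11c, which act in the folding, export or clearance of secreted proteins, were found in all 5. Several genes of mature B cells were at or near 0. Ighm, Ms4a1, Cd22, Pax5, Bank1, Fcmr and Ccr7 had no UMI in any of the 5, and H2-Aa, H2-Ab1 and H2-Eb1 had 2, 2 and 3 UMIs. Cd74 was lower but found in all 5, with 56 UMIs, at 1396.5 CPM against 8247 in the other B cells. Of known plasma cell genes, Irf4 and Derl3 were each found in 3 of the 5 cells, Sdc1 (CD138) in 1, Mzb1 in 1 and Prdm1 in none.

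The 4 cells of HFpEF library 2 shared variable gene transcripts. All 4 held Igkv12-46 (chr6:69764523-69765022, GRCm38), at 14, 17, 13 and 15 UMIs, and the only other cell of the series with this transcript held 1 UMI of it and lay in the same library. Ighv1-72 was found in 3 of the 4, at 2, 1 and 1 UMIs, and Iglv1 in all 4, at 3, 3, 1 and 1. The cell of NC library 2 held 19 Igkv4-72 (chr6:69226854-69227433) and 7 Ighv1-78 UMIs instead, and 1 other cell of the series held Igkv4-72. The 4 barcodes differed from each other at 9 or more of their 16 bases. Whether they stand for separate cells of a clone or for 1 cell captured more than once was not tested. Variable genes have many similar copies, so their names are uncertain, and over all 123 B cells Igkv transcripts were captured in only 13 cells and Ighv transcripts in 10.

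HFpEF was compared with NC on the summed UMIs of the B cells of each library, with the 2 libraries of a diet taken as its replicates although they may differ in genotype. These sums were 69931 and 211789 UMIs for NC and 42683 and 201936 for HFpEF. Of 2063 genes tested with edgeR's quasi-likelihood test and Benjamini-Hochberg adjustment, 1 (0.0485%) passed an adjusted p of 0.05, and 144 (6.98%) had an unadjusted p under 0.05. Aqp1, a water channel of capillary ECs (chr6:55336432-55348555, GRCm38), was at 1444 and 1431 CPM for NC and at 539 and 386 for HFpEF. The diets did not overlap, and it fell by 1.67 (SE 0.26) on the log2 scale (edgeR adjusted p = 0.0378). The call was lost without NC library 2 (adjusted p = 0.282) and without HFpEF library 2 (adjusted p = 0.201).

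Aqp1 belongs to the endothelial list, and the list as a whole was lower in B cells of both HFpEF libraries. Of its 16 genes, 15 were tested, of which 13 were lower and 2 higher in HFpEF, with Aqp1 the 1 that passed. It summed to 28671 and 26772 CPM in B cells for NC, and to 17618 and 20046 for HFpEF. In ECs, Aqp1 itself was at 1688 and 1716 CPM for NC and 1330 and 990 for HFpEF. Among B cells with fewer than 2 endothelial UMIs, the Jchain-rich cells left out, only 3 of 53 held an Aqp1 UMI, against 40 of 62 with 3 or more. The part of endothelial RNA in this difference was not tested further.

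The next smallest p-values belonged to Timp4, Hsph1, Ighg2b and Hspe1, which did not pass here. Under other settings Timp4 and Hsph1 each passed in 7 and missed in 5, Ighg2b passed in 5 and missed in 6, and Hspe1 passed in 3 and missed in 10. Each of them passed with a block on the library number. Without the Jchain-rich cells Timp4 and Hsph1 passed (edgeR adjusted p = 0.0298 and 0.0329). Timp4, an inhibitor of matrix metalloproteinases, was at 601 and 482 CPM for NC and 141 and 129 for HFpEF (edgeR adjusted p = 0.0611), and at 1245, 883, 521 and 431 in ECs. Outside the Jchain-rich cells, 40 of 62 B cells with 3 or more endothelial UMIs held a Timp4 UMI, against 1 of 53 with fewer than 2. The part of endothelial RNA in the Timp4 difference was not tested. Hsph1, a chaperone, was at 172 and 85.0 for NC and 445 and 451 for HFpEF (edgeR adjusted p = 0.0897). ECs held 67.4, 31.1, 166 and 219 CPM of it, lower in level and in the same order of diets. Hspe1, the mitochondrial chaperonin partner, was at 172 and 241 for NC and 375 and 822 for HFpEF (edgeR adjusted p = 0.356). Ighg2b was at 0 and 23.6 for NC and 141 and 159 for HFpEF (edgeR adjusted p = 0.158), and its 43 UMIs came from 6 cells, 4 of them rich in Jchain.

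Gene lists of the B cell programme held no call in either direction. All 13 tested genes of the antigen receptor list missed the threshold, with 10 higher in HFpEF and a median log2 change of 0.32, against 0.03 over the 2063 genes. Among these 10 are Cd79a, Cd79b and Ms4a1, which chose the cells by a minimum of 3 UMIs, so their direction supports nothing further. B cells had medians of 8216 and 5676 UMIs for NC and 2200 and 3115 for HFpEF. Of the 9 tested class II genes, 8 were higher, with a median of 0.40. For Cd74 the levels of the diets did not overlap, at a log2 difference of 0.67 (SE 0.19, edgeR adjusted p = 0.548), and H2-Eb1 stood at 1201 and 1440 for NC and 2343 and 1609 for HFpEF (edgeR adjusted p = 0.685). The diets overlapped for H2-Aa, at 1644 and 2413 for NC and 3303 and 2124 for HFpEF (edgeR adjusted p = 0.800). ECs held Cd74 at 19.3 and 24.3 CPM for NC and 56.5 and 46.2 for HFpEF, and H2-Eb1 at 5.19 and 7.50 for NC and 14.8 and 13.2 for HFpEF, also without overlap of the diets and with no test. Endothelial UMIs took a smaller share of the HFpEF cells, which moves with these values, and their part was not tested. None of the T cell, myeloid or natural killer markers reached the count needed for a test.

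**Figure D5:**
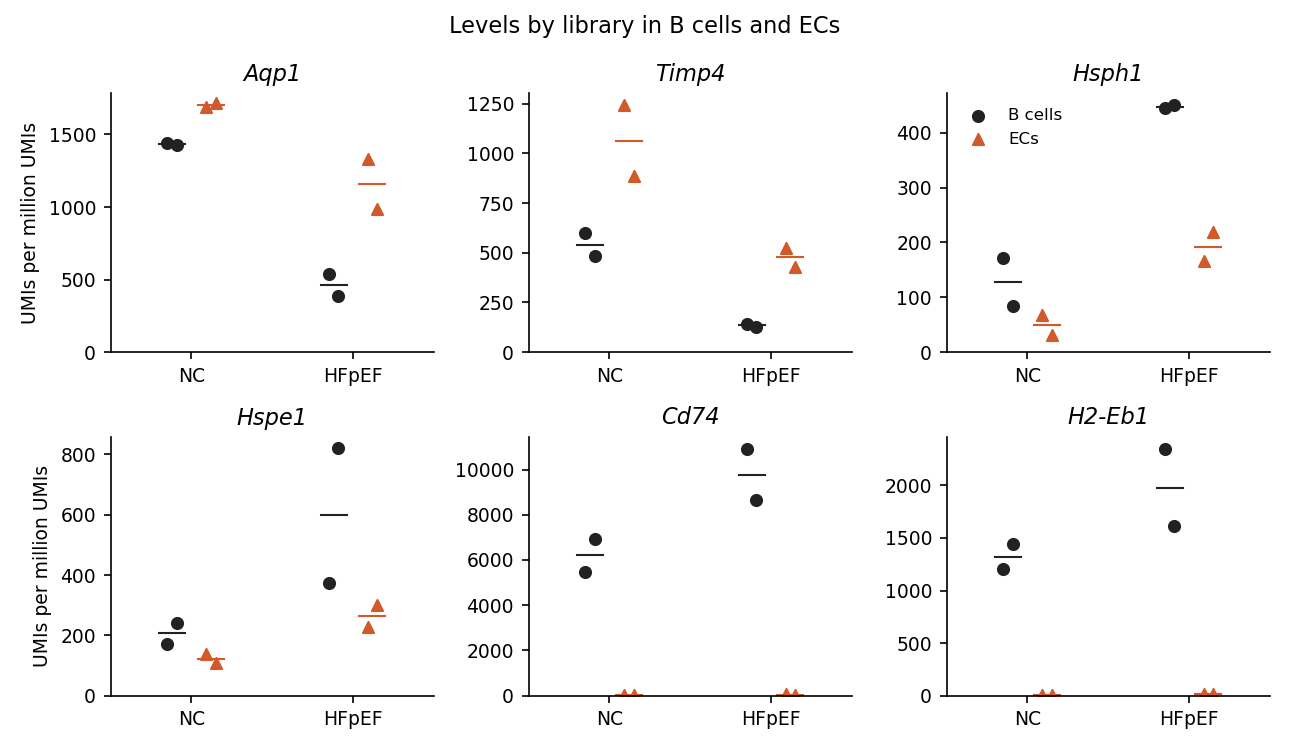
CPM in B cells (circles) and ECs (triangles) of each library for 6 genes, with lines at the mean of the 2 libraries of a diet. Aqp1 and Timp4 are lower and Hsph1 higher in HFpEF in both kinds of cells, and Cd74 and H2-Eb1 are far lower in ECs than in B cells and higher in the HFpEF libraries in both.

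With B cells holding 2 or more endothelial UMIs left out, NC library 1 held no cell and 388 genes remained for a test in which NC library 2 stood alone for its diet, its spread assumed to be like that of the HFpEF libraries. Hspa1b and Hspa1a, the inducible heat shock chaperones, were then called higher in HFpEF, by 4.68 and 3.58 on the log2 scale (edgeR adjusted p = 0.0029 and 0.00621). Over all B cells Hspa1b overlapped between the diets, at 2274 and 1048 CPM for NC and 2202 and 5586 for HFpEF (edgeR adjusted p = 0.548), with HFpEF library 2 alone above the rest. Hspa1a was at 2588 and 1761 CPM for NC and 2741 and 5606 for HFpEF (edgeR adjusted p = 0.548), and both genes were called over all B cells without NC library 1, without HFpEF library 1 and with a block on the library number. ECs held 2768 and 1683 for NC and 5528 and 6558 for HFpEF, with no overlap of the diets. The 2 genes are near-identical copies, so the split of reads between them is uncertain.

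Scarb1, the floxed gene (chr5:125277087-125341094, GRCm38), was counted in B cells at 4 and 8 UMIs for NC and 2 and 4 for HFpEF, or 57.2, 37.8, 46.9 and 19.8 CPM. ECs held 107, 44.2, 109 and 50.6, and T cells gave 2 UMIs in all. The 18 UMIs of B cells lay in 10 cells. The 57 B cells with fewer than 2 endothelial UMIs held 1 of them, or 8.24 CPM. The part of endothelial RNA in the B cell counts was not tested. At 2 to 8 UMIs a library, a difference between the B cell libraries was not detectable. In ECs the level was lower in library 2 than in library 1 of each diet. No genotype was assigned from these values.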

How the data were processed

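Sorted RFP-positive left ventricular cells were measured in 4 libraries (2 NC, 2 HFpEF) with 10x Genomics 3′ V3 chemistry. The deposited values are UMI counts per gene and cell, which the authors made with fastp and Cell Ranger 5.0.1 on mm10. The methods also name downsampling to an aggregated matrix. Whether it was applied to the deposited matrices is not given in the sources used here. The members, gene lists and tests were chosen with earlier results of these data known. The authors' filters (over 200 genes, under 20% mitochondrial UMIs) and a limit of 1% hemoglobin UMIs were applied, which kept 7114, 6687, 5440 and 20588 cells. Doublets were not called here. Thinning drew 1000 UMIs a cell with a fixed seed, intervals are exact Clopper-Pearson ones at 95%, and all cover counting error only.

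Levels are counts per 1000000 UMIs (CPM) of the pooled cells of a class, and ratios used a prior of 10 CPM. Genes were named if on a list of roles, among the 46 or among the 10 leading ratios. Genes called between diets, and those with the 5 smallest p-values, were also named. Some genes of the Jchain-rich cells were named after those cells were seen. Summed counts per library were tested with edgeR 4.0.16 (quasi-likelihood, TMM, filterByExpr, diet only, adjusted p under 0.05), with DESeq2 1.42.0 as an alternative, in R 4.3.3. On simulated counts of this comparison, 0 of 173 genes changed by a log2 of 1, 148 of 172 changed by 2 and 168 of 176 changed by 3 were recovered, among 2080, 2085 and 2060 genes tested, with 0, 6 and 8 unchanged genes called. The libraries are not stated to come from separate animals, and those of a diet may differ in genotype, so p-values measure only the spread between them. Positions are from GENCODE M21, where 99.5% of 31253 identifiers were found. Tables were made in Python 3.11.15 (pandas 2.3.3, numpy 2.4.6, scipy 1.17.1) and plots with matplotlib 3.10.9. A few genes of the lists are not reported here.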

Additional observations from a re-analysis of the deposited data

How the results depend on the processing

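The difference in the share of B cells, HFpEF minus NC (0.0111 percentage points), moved by less than the spread of the libraries under all 11 alternatives, but its size and direction were not stable: it was -0.179 without NC library 1, 0.202 without NC library 2 and -0.0712 at a marker sum of at least 5. The 46 genes at least 4-fold higher stayed within 1.5 times that number in 11 of 12 alternatives, and became 72 with B cells of 2 or more endothelial UMIs left out. The share with light chain UMIs of 1 kind (59.8%) became 49.1% with those cells left out and 80.4% after thinning to 1000 UMIs, and stayed within its interval otherwise. The diet comparison was the least stable. It gave 1 gene with edgeR, DESeq2, without TMM factors and with hemoglobin-rich cells kept, 6 genes without a filter on low counts, 2 and 4 genes with marker sums of at least 2 and 5, 2 genes with endothelial UMIs left out, and 3 without the Jchain-rich cells, an alternative chosen after seeing the data. Leaving out 1 library gave between 0 and 15 genes: 10 without NC library 1, 0 without NC library 2, 15 without HFpEF library 1 and 8 without HFpEF library 2. The cause of these shifts was not tested. Library numbers are shared between the diets, but no label says what they mark. Genotype may vary within a diet, and whether the number follows it is not given in the sources used here. A block on the library number gave 9 genes, which were Cdkn1a, Hspa1a, Hspa1b, Rgs5 and, with edgeR adjusted p from 5.18e-05 to 0.00691, Aqp1, Timp4, Hsph1, Ighg2b and Hspe1, with a correlation of 0.149 between the deviations of the libraries numbered 1. All 60 values of the 5 genes with the smallest p-values kept their direction under the alternatives that tested them, and 36 kept their side of the threshold. The counts of 8 to 65 B cells a library limit every statement on the diets.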

Other observations

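Of 18 immediate early and stress genes, 15 had a higher pooled level in B cells with 3 or more endothelial UMIs than in those with fewer than 2, 12 of them by over 2-fold, and 3 (Jund, Cd69 and Tnfaip3) had a lower one, the Jchain-rich cells left out. Of these, Fos, an immediate early factor, was found in 59 of the 62 B cells with 3 or more endothelial UMIs and in 15 of the 53 with fewer than 2, at 2183 and 253 CPM. Jun was found in 60 and 16 of them, Egr1 in 53 and 8, and Hspa1a in 53 and 15. Jund, another member of the family, was found in 61 and 50, at 2108 and 2330 CPM. Pooled ECs held Fos, Jun, Egr1 and Hspa1a at 3139, 3487, 2946 and 4085 CPM, and Jund at 1697. The part of endothelial RNA in these levels was not tested. The 5 Jchain-rich cells held no Fos or Hspa1b UMI, 1 Jun UMI and 1 Hspa1a UMI. Of B cell genes, Ighm was found in 59 of 62 and 48 of 53 cells and Ly6d in 50 and 43. Their pooled levels were lower in the cells with 3 or more, at 949 against 3275 CPM for Ighm and 402 against 1637.5 for Ly6d. These groups were formed from the counts of the same cells, and no test was made.

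Interferon-induced genes were not higher in B cells than in the other classes. The 16 genes summed to 1742 CPM in B cells, 1849 in T cells and 2492 in ECs, and to 832 in the 57 B cells with fewer than 2 endothelial UMIs. Ifi27l2a stood apart within the list, at 186 CPM in B cells, 374 in T cells and 30.4 in ECs. The T cell values by library were 1808 and 277 CPM for NC and 121.5 and 193 for HFpEF. B cells held 157 and 160.5 for NC and 328 and 193 for HFpEF.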
